A study of Mus musculus with 21 samples.

Results

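RBBP4 and RBBP7 are closely related WD40-repeat proteins that bind histones, and both are subunits of the chromatin remodelling and deacetylase complex NuRD. The regions described here are those where both had a peak and no other NuRD subunit in the series did. Peaks of the 6 deposited ChIP-seq lists that overlapped by at least 1 bp on chromosomes 1 to 19 and X were merged into 38820 regions, and 2946 of these (7.59%) held RBBP4 and RBBP7 peaks and no peak of the lists for MBD3, CHD4, HDAC1 or HDAC2. The regions were selected on these measured peaks, so the fold enrichments, widths and numbers of their peaks are given as description without a test. The same merging gave 9144 regions with an RBBP4 peak alone, 4867 with an RBBP7 peak alone and 6150 with both and at least 1 further subunit.

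Chromatin immunoprecipitation was done at E13.5 (embryonic day) on the ganglionic eminences, the embryonic basal ganglia, of CD1 mice, with 1 library per subunit and 3 input libraries. RBBP4 and RBBP7 were both paired with input 3, so signal that the 2 lists owe to that input and signal at shared binding sites cannot be told apart. Open chromatin was mapped by ATAC-seq at E12.5 in CD1 embryos that were wild type (WT) or lacked the homeobox genes Dlx1 and Dlx2 (Dlx1/2 -/-, KO). Cells were divided into an Ftag-positive fraction (FTpos) from the ventricular zone, where progenitors divide, and an Ftag-negative fraction (FTneg) from the subventricular zone and the mantle. Each fraction of each genotype came from 3 embryos. The files attached to 3 ChIP samples carry another subunit's name: the CHD4 sample has a file named HDAC1, the HDAC1 sample one named HDAC2 and the HDAC2 sample one named CHD4. Lists are called here by the sample's label, and the choice of the 2946 regions does not depend on this, since all 4 lists are barred. Peak lists hold no expression level, so the tissue label could not be checked against cell type markers, and the read depth behind each list is unknown.

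As background, RBBP4 and RBBP7 are shared by several complexes. Besides NuRD they belong to PRC2, the Polycomb complex that methylates histone H3 at lysine 27 over silent developmental genes, to the SIN3 deacetylase complexes and, in part, to the histone chaperone CAF-1, the remodeller NURF and the acetyltransferase HAT1. Polycomb targets are typically CpG-rich promoters of transcription factors that pattern other parts of the embryo.

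Among the genes with such a region over the bases just before a start site were 5 whose upstream sequence is shown, because they are patterning regulators from the gene lists used below. Each sequence is the 250 bases before the start in RefSeq (GRCm38.p6, the mm10 build), read 5′ to 3′ on the gene's strand, with CpG dinucleotides in capitals. En1 (chr1:120602237-120602486, plus strand) encodes a homeodomain factor of the midbrain-hindbrain boundary, and Gbx2 (chr1:89931177-89931426, minus strand) one of the anterior hindbrain. Foxc1 (chr13:31806396-31806645, plus strand) encodes a forkhead factor of mesenchyme and vessels, Hand2 (chr8:57320733-57320982, plus strand) a bHLH factor of heart and limb, and Gsx1 (chr5:147188446-147188695, plus strand) a homeodomain factor of ganglionic eminence progenitors.
En1: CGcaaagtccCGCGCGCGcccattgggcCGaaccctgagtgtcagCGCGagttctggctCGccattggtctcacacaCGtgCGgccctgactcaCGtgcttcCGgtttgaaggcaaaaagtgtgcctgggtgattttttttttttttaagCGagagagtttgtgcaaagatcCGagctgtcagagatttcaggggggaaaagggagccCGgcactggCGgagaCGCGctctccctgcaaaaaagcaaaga
Gbx2: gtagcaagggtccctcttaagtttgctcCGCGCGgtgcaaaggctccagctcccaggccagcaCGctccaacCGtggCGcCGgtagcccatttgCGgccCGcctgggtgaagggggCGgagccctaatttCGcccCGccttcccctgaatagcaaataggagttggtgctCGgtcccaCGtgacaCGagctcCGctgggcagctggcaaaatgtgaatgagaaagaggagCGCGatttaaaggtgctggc
Foxc1: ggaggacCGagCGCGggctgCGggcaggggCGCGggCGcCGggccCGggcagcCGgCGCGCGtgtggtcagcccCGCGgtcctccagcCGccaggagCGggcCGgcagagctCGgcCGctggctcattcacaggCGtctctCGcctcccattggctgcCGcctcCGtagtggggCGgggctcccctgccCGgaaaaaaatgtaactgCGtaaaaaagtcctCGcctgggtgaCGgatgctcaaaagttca
Hand2: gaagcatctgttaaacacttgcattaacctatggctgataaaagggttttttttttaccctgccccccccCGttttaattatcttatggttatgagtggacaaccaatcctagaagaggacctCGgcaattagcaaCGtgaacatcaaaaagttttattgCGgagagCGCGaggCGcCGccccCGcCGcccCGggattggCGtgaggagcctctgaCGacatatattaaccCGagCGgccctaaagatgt
Gsx1: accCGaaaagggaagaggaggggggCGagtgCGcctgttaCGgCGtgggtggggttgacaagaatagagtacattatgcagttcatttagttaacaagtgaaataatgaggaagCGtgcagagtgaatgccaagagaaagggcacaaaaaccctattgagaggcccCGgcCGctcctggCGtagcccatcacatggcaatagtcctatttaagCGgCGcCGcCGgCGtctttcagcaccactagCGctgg

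The Foxc1 window held 29 CpG dinucleotides with a GC content of 70.8%, and the Hand2 window 15 with 49.2%. In between lay the En1 window with 19 CpG (56% GC), the Gbx2 window with 18 (61.6%) and the Gsx1 window with 15 (54%). All 5 windows lay inside wide regions: 7943 bp at Gbx2, 7340 bp at Hand2, 6828 bp at En1, 4042 bp at Foxc1 and 2072 bp at Gsx1. The 5 were picked by list and rank of fold, so their widths do not stand for all windows with such a region. In all, 174 of 20417 upstream windows overlapped a region with RBBP4 and RBBP7 only. Their median GC content was 62.6% (quartiles 54.4 and 69.1%) and their median CpG count 15 (quartiles 10 and 22). Over all windows the medians were 56% and 10, and over the 9709 windows with no merged region 48.8% and 3. The 911 windows with an RBBP4-alone region had 61.6% and 15, and the 31 with an RBBP7-alone region 52% and 6. CpG counts were higher in the 2269 windows with both proteins and other subunits (64.8% and 19). They were also higher in the 7415 with any other combination (62% and 18).

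A set of 5 short motifs were searched on both strands of these windows, and none contains another. The GC box GGGCGG was in 67.2% of the 174 windows and in 44.1% of all windows. CCAAT was in 35.1% against 35.6%, TATAAA in 11.5% against 11.5%, the homeodomain core TAATTA in 4.02% against 4.22% and the E-box CAGCTG in 10.3% against 12.3%. Windows with RBBP4 and RBBP7 together with other subunits held the GC box in 69.3% of 2269 cases, TATAAA in 4.72% and TAATTA in 1.76%. TATAAA and TAATTA were in 6.7% and 1.76% of RBBP4-alone windows, and in 18.6% and 6.75% of windows with no merged region. Among the 174 windows, 20 held TATAAA and 7 held TAATTA. These shares describe letters and not binding.

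Most of the 2946 regions were narrow, and their peaks were in the median close to the middle of each list. Single peaks reached from rank 131 down the RBBP4 list and from rank 7 down the RBBP7 list. The width had a median of 592 bp (quartiles 478 and 831, range 285 to 8992), and 2830 regions held exactly 1 peak of each protein. The summits of the 2 highest peaks lay a median of 78 bp apart, and within 100 bp in 1745 regions (59.2%). RBBP4 fold enrichment over input, the authors' value at the peak summit, had a median of 4.88 (range 2.37 to 13.7), close to the median of 4.85 over all 29762 RBBP4 peaks. RBBP7 fold enrichment had a median of 6.51 (range 3.28 to 25), against 6.20 over all 14918 RBBP7 peaks. Of the RBBP4 list 9.98% of peaks lay in these regions, and of the RBBP7 list 20.6%. Across the regions the 2 folds were weakly related (Spearman's rho 0.12, against 0.35 over the 6150 regions with further subunits), a description over sites that share 2 libraries and 1 input.

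By chromosome, the share ranged from 4.87% of the merged regions on X (35 of 719) to 9.55% on chromosome 13 (177 of 1854). The nearest peak of a barred list was a median of 33801 bp away, and 164 regions (5.57%) had one within 1 kb. At the edge of the rule, the peaks of the region nearest Tfeb overlapped by 1 bp, a region in Lrmda lay 2 bp from a peak of another list, and a region nearest Slc25a12 fell outside because a peak of a barred list overlapped it by 3 bp. The number of regions rests on how many peaks are admitted: it was 1501 with peaks of −log10 q of at least 10, and 474 with all lists shortened to the length of the shortest. Leaving out 1 barred list at a time gave 3063 to 3721 regions.

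**Figure D1:**
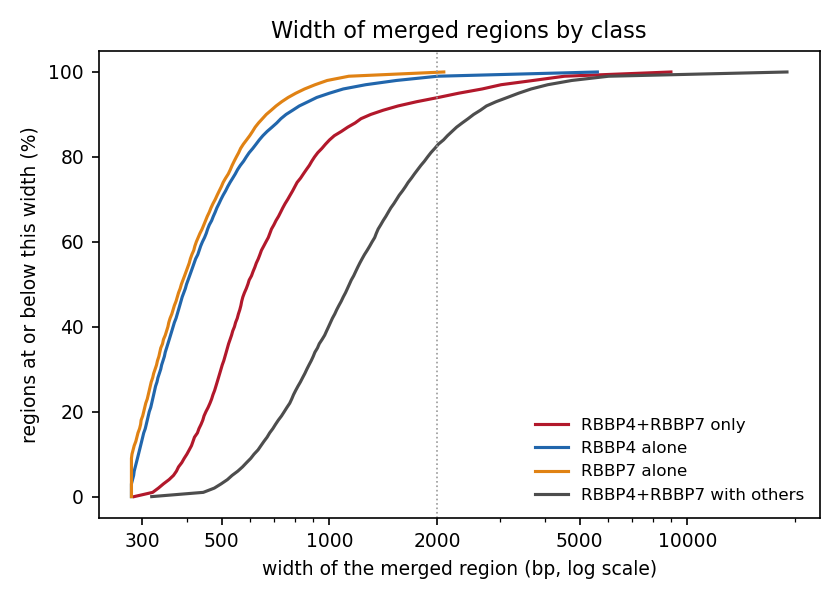
Share of regions (vertical axis, %) at or below a given width (horizontal axis, bp, log scale) for the 4 classes of merged regions; the dotted line marks 2000 bp. The median was 592 bp for regions with RBBP4 and RBBP7 only, 399 bp for RBBP4 alone, 386 bp for RBBP7 alone and 1137 bp for both with other subunits.

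First among the regions that ranked best in both lists was a region of 935 bp inside Cadm2, a synaptic adhesion gene, with an RBBP4 fold of 10.4 and an RBBP7 fold of 15.5 (chr16:67061453-67062387). Next came a region 228094 bp from Tox3, which encodes an HMG-box factor, with an RBBP4 fold of 10.2 and the 487th highest peak of the RBBP7 list, and a region inside Lrrc1 with folds of 9.91 and 12.9. A region 127303 bp from Prox1, a homeobox gene of neuronal and lymphatic fates, had folds of 9.36 and 13.0. The other members of the first 12 had Zfp608, Dact2, Tbx18, Asap1, En1, Slc30a8, Nos1ap and Hsd17b3 as nearest gene. Among these 12, En1 was the one with a region within 1 kb of its gene end, and the regions at En1 (6828 bp) and Tbx18 (3413 bp) were the wide ones; the other 10 were 495 to 963 bp. Over all 2946 regions the share at gene ends was 4.34% in the 737 of lowest RBBP4 fold (2.37 to 4.24) and 21.6% in the 737 of highest (5.88 to 13.7).

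Position relative to genes was not used directly to choose the regions. Over all widths, their share at gene ends differed from that of each related class. Of the 2946 regions, 282 (9.57%, 95% Wilson interval 8.56 to 10.7) lay within 1 kb of either end of a protein-coding gene, compared with 33.7% of all merged regions. The share was 55.6% of the 15713 regions with a peak of a barred list but not of both RBBP4 and RBBP7. The rule bars those lists, so it bears on the comparisons with all merged regions and with both with other subunits. Each class was compared with Fisher's exact test (two-sided), adjusted by Benjamini-Hochberg over 7 tests. The share was 19.0% for RBBP4 alone (odds ratio 0.452, 95% interval 0.394 to 0.517, exact test, adjusted p = 2.427e-35), 2.38% for RBBP7 alone (odds ratio 4.34, interval 3.46 to 5.46, adjusted p = 1.595e-42) and 35.8% for both with other subunits (odds ratio 0.190, interval 0.166 to 0.217, adjusted p = 3.923e-171). These exact tests compare lists of regions from 1 library each, not replicates; no replicate spread can be given. 1444 regions (49.0%) had their highest summit inside a gene and 598 (20.3%) had it over 100 kb from one.

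**Figure D2:**
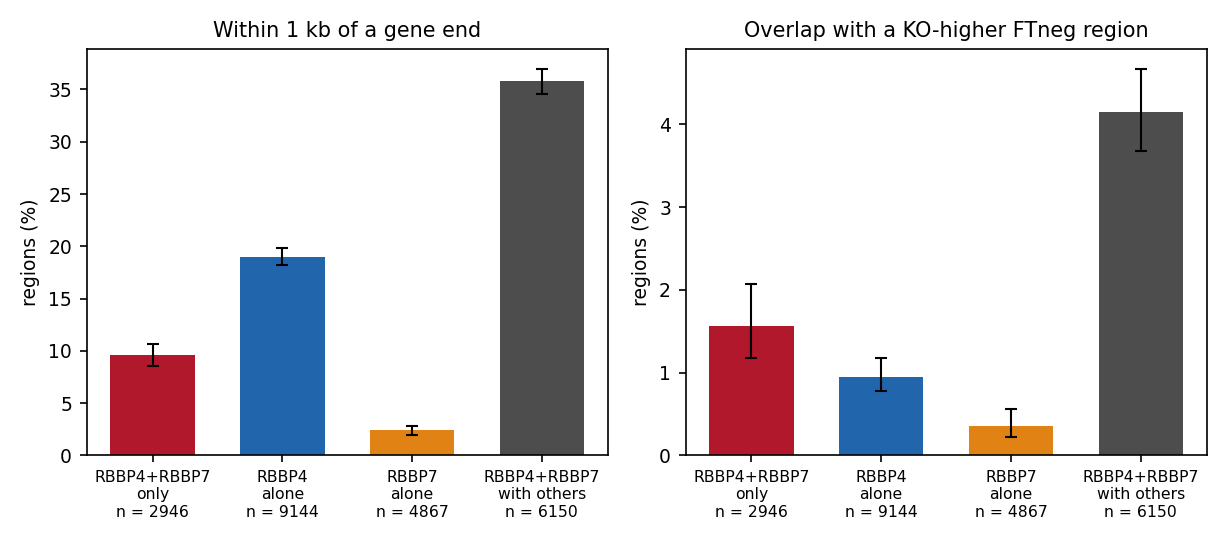
Share of regions (%) within 1 kb of a gene end (left) and overlapping a region more accessible in KO than WT FTneg cells (right), for 4 classes of merged regions; bars are shares and whiskers 95% Wilson intervals, which cover counting error only. Regions with RBBP4 and RBBP7 only stood at 9.57% and 1.56%, above RBBP7 alone and below both with other subunits in each panel.

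Position changed with width. Within 1 kb of a gene end lay 3.69% of the 895 regions under 500 bp, 4.63% of the 1578 from 500 bp to under 1 kb, 18% of the 295 from 1 kb to under 2 kb and 69.1% of the 178 of at least 2 kb. Under 500 bp the share was 13.6% for RBBP4 alone, 2.45% for RBBP7 alone and 4.26% for both with other subunits (188 regions). At 500 bp to 1 kb the share was 28.0% for RBBP4 alone, 2.29% for RBBP7 alone and 16.3% for both with other subunits. At 2 kb or more it was 59.1% for RBBP4 alone (93 regions) and 69.4% for both with other subunits (1067 regions), so most wide regions sat at gene ends in all 3 classes. At that width the order against RBBP4 alone was the reverse of that over all widths. The share was close to that of both with other subunits under 500 bp and at 2 kb or more, without a test. The width steps were chosen after the values were seen.

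The 178 wide regions differed in shape from the rest. In 175 of them a single RBBP4 peak ran over the region, covering a median of 100% of its length, while RBBP7 peaks covered a median of 17.9% and numbered up to 6. Their RBBP4 fold had a median of 8.06 (range 3.48 to 13.7), above the list's 4.85, and their RBBP7 fold a median of 5.70 (range 3.69 to 12.8), below the list's 6.20. In the 2768 narrower regions the medians were 4.85 and 6.56, and the peaks of RBBP4 and RBBP7 covered 83.4% and 89% of the length. Wide regions of the related classes also had RBBP4 folds above the list's 4.85. Their medians were 6.97 for RBBP4 alone and 6.98 for both with other subunits. The count of wide regions with RBBP4 and RBBP7 only fell to 49 with peaks of −log10 q of at least 10, to 36 with lists of equal length and to 109 when regions were built from summits within 250 bp.

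**Figure D3:**
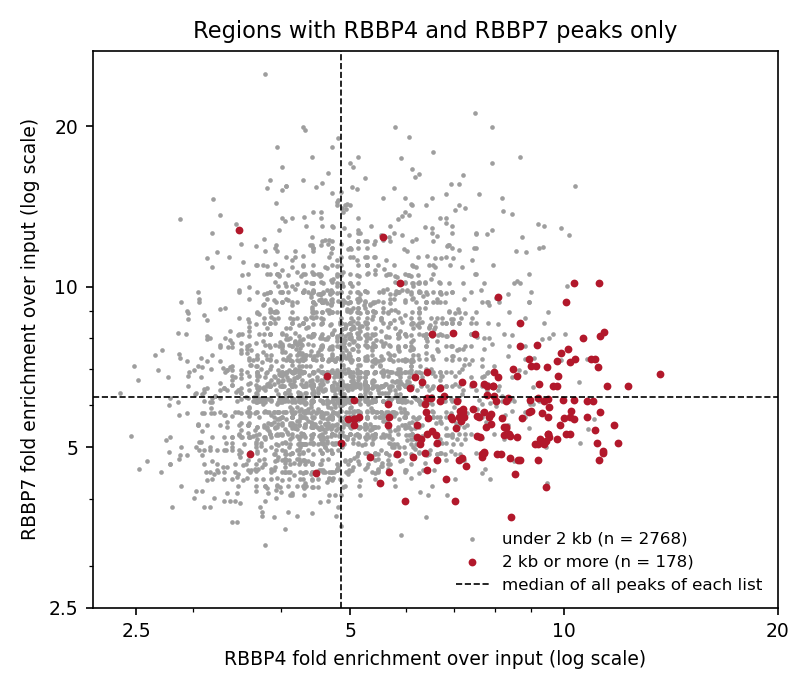
RBBP4 fold enrichment (horizontal axis) against RBBP7 fold enrichment (vertical axis), both over input and on log scales, for the 2946 regions; red points are the 178 regions of at least 2 kb and dashed lines the medians of all peaks of each list (4.85 and 6.20). The red points lie mostly to the right of the RBBP4 median and around or below the RBBP7 median.

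Of the 178 wide regions, 52 (29.2%) had 1 of the 50 listed developmental factors described below as nearest gene, compared with 23 of 93 wide regions of RBBP4 alone (24.7%) and 5 of 1067 with both and other subunits (0.469%). Among the widest, Lbx1, a homeobox gene of dorsal spinal cord and muscle precursors, had a region of 8992 bp with 1 RBBP4 peak (fold 8.08) and 4 RBBP7 peaks (highest fold 9.59). Sox14, an HMG-box gene of brainstem and spinal neurons, had one of 8526 bp with folds of 10.6 and 8.02. Irx5, an Iroquois homeobox gene, had one of 8145 bp with folds of 10.0 and 5.66, and a peak of the MBD3 list ended 329 bp from it. Gbx2 followed with 7943 bp, Gata3, which encodes a zinc finger factor, with 7662 bp, Hand2 with 7340 bp and, further down, En1 with 6828 bp. The En1 region was 276972 bp from the nearest peak of a barred list, and the Gata3 region 162213 bp. In each of these 7 regions there was 1 RBBP4 peak, with 1 to 6 RBBP7 peaks inside it or at its edge.

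**Figure D4:**
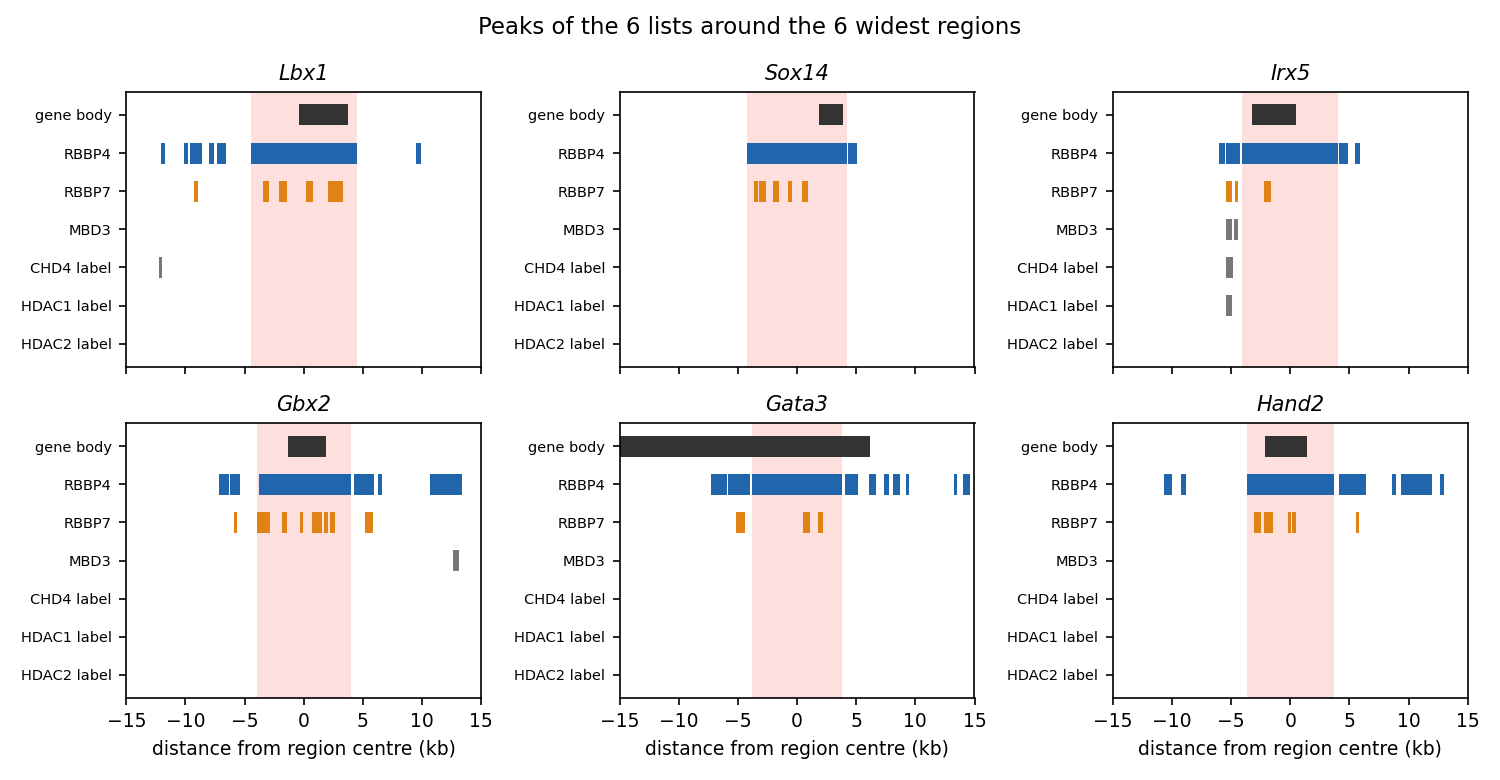
Peaks of the 6 lists within 15 kb of the centre of the 6 widest regions (horizontal axis, distance from the centre in kb; shaded, the region; black, the gene named above each panel). Blue bars are RBBP4 peaks, orange bars RBBP7 peaks and grey bars peaks of the other 4 lists: 1 RBBP4 peak spans each shaded region, except for a short stretch at the left edge of the Gbx2 region that an RBBP7 peak covers, and no grey bar enters one.

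Genes that pattern territories other than the ganglionic eminences were the list in which these regions were most frequent at gene ends. Of 50 such factors, 31 had a region with RBBP4 and RBBP7 only within 1 kb of an end, against 288 of 20949 genes in all (1.37%). RBBP4 alone was found at 32 of the 50 (7.8% of all genes) and RBBP7 alone at none (0.606% of all genes). Both with other subunits were found at 3 (11.7% of all genes) and any other combination at 2 (41.1% of all genes). For 13 of the 31, regions with RBBP4 and RBBP7 only were the sole merged regions at their ends, among them En2, Evx1, Foxa2, Gbx2, Hand2, Hoxa5, Lmx1b, Nkx2-2, Pax3, Pax5, Twist1 and Wt1. Foxf1 and Hoxd13 also had a region with a further subunit. The list was drawn up as genes of the kind that Polycomb holds silent, with results of these data already known, so its count is a description. It was 6 of 50 with peaks of −log10 q of at least 10, 7 with lists of equal length and 15 with regions built from summits within 250 bp, and 31 or 32 with any 1 barred list left out.

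The 39 regions at the ends of these 31 genes were 1295 to 7943 bp wide (median 3657), with RBBP4 folds of 4.48 to 13.7 (median 8.14) and RBBP7 folds of 3.69 to 10.2 (median 5.52). Foxd3, a forkhead gene of the neural crest, had the highest RBBP4 fold of all members, 13.7, in a region of 4804 bp where RBBP7 reached 6.87. Nkx6-1, a homeobox gene of ventral spinal cord and pancreas, had folds of 11.2 and 7.08 over 5551 bp. Foxa2, a forkhead gene of floor plate and endoderm, had 8.41 and 3.69 over 4342 bp, the latter the lowest RBBP7 fold of the 39. At Nkx2-5, a heart homeobox gene, both folds were 4.48 over 5345 bp. Barhl2, a homeobox gene of retina and diencephalon, had 3 of these regions at its ends and was nearest to 7 in all, with RBBP4 folds of 4.71 to 10.8.

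Whole gene families gave a like picture, though they were picked after the values were seen and share genes with the list of developmental factors. The 4 Pax genes counted below are all in that list, as are some of the Hox, Nkx, Fox and Tbx genes. A region with RBBP4 and RBBP7 only lay at an end of 20 of 39 Hox genes, 7 of 14 Nkx genes, 4 of 9 Pax genes and 12 of 44 Fox genes. Shares were lower for Tbx genes (3 of 13), Sox genes (3 of 19) and Wnt genes (3 of 19). Of 365 zinc finger genes with Zfp symbols, 4 (1.1%) had one, beside 1.37% of all genes. A region at the ends of 2 genes was counted for both, as at Hoxa5 and Hoxa6.

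**Figure D5:**
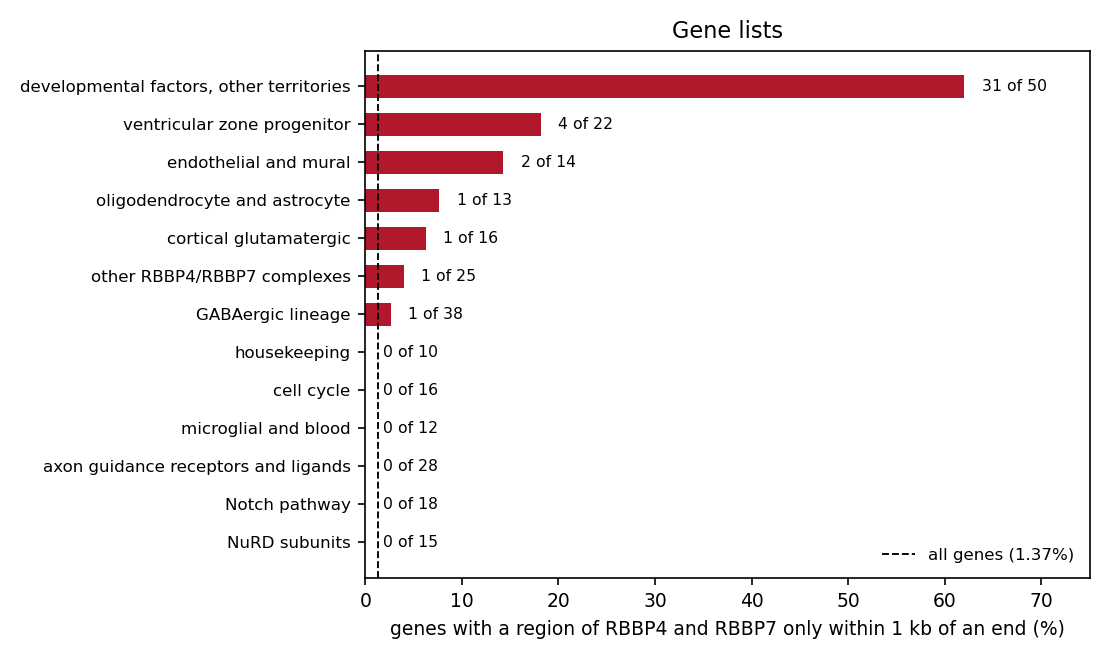
Share of the genes of each list (horizontal axis, %) with a region of RBBP4 and RBBP7 only within 1 kb of an end; the numbers are genes and the dashed line all 20949 genes (1.37%). Developmental factors of other territories reached 31 of 50, and the next list, ventricular zone progenitor genes, 4 of 22.

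Among genes that work in the ganglionic eminences themselves, counts at gene ends were small, and they were not tested. Of all genes, 1.37% had a region with RBBP4 and RBBP7 only at an end. In the list of ventricular zone progenitor genes 4 of 22 (18.2%) had one at an end, among them Gsx1 and Nkx6-2 with regions of 2072 and 2984 bp and Otx2 with 2242 bp. Of 38 GABAergic lineage genes 1 (2.63%) did, Lhx8, a factor of cholinergic and GABAergic neurons, with 2319 bp and folds of 7.08 and 6.10, and 24 of the 38 had a region with both proteins and further subunits at an end. None of 15 NuRD subunit genes and none of 18 Notch pathway genes had a region with RBBP4 and RBBP7 only at an end. At the share of all genes, none is the likeliest count for lists of this size. Of 25 genes for other complexes that hold RBBP4 or RBBP7, Bptf, which encodes the large subunit of NURF, had one of 610 bp.

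In lists of markers of other cell types few genes had a region with RBBP4 and RBBP7 only at an end, beside 1.37% of all genes. The share was 6.25% for cortical glutamatergic, 7.69% for oligodendrocyte and astrocyte and 14.3% for endothelial and mural genes, without a test. Of 16 cortical glutamatergic genes Slc17a6, a vesicular glutamate transporter, had one of 800 bp. Of 13 oligodendrocyte and astrocyte genes Nkx2-2 had one, and of 14 endothelial and mural genes Flt1, a VEGF receptor, and Foxc1. Nkx2-2 and Foxc1 are also in the list of developmental factors. The Flt1 region was 3426 bp wide with folds of 8.66 and 8.54. None of 12 microglial and blood genes, 28 axon guidance genes, 16 cell cycle genes or 10 housekeeping genes had one. At the share of all genes, none is the likeliest count for lists of this size.

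By nearest gene, the 2946 regions were spread over many genes: 1978 genes were nearest to at least 1, and 1389 of them to exactly 1. Tenm2, a teneurin adhesion receptor, was nearest to 10, Nfib, a nuclear factor I gene of glial and neuronal development, to 9, and Slc4a3 and Tenm4 to 8 each. Auts2, Barhl2, Dipk2a, Lrmda, Vrk1 and Wwox had 7 each. Tenm2 spans 1230 kb, Auts2 1106 kb and Lrmda 1037 kb, while Slc4a3 spans 13.4 kb and Barhl2 5.64 kb. The 10 at Tenm2 were spread over 2432 kb and made up 15.6% of the 64 merged regions assigned to it. Among these 10 genes that share was highest at Dipk2a (50% of 14) and Barhl2 (41.2% of 17). It was lowest at Auts2 (9.09% of 77), near the 7.59% over all merged regions. All 7 at Auts2, a neurodevelopmental disorder gene, lay inside the gene, with RBBP4 folds of 3.77 to 5.68 and RBBP7 folds of 7.81 to 12.2.

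Of the GABAergic lineage genes, 21 of 38 (55.3%) were nearest to at least 1 region and to 40 in all, compared with 9.44% of all genes nearest to at least 1. The share was 84% for the developmental factors of other territories, 68.8% for cortical glutamatergic, 68.2% for ventricular zone progenitor and 64.3% for axon guidance genes; these shares were not tested against each other. A set of 4 genes was singled out after their values were seen. Dlx2, the homeobox gene deleted together with Dlx1 in the KO, had 3 regions 65959 to 80798 bp away, with RBBP4 folds of 3.39 to 6.54 and RBBP7 folds of 5.83 to 7.14. Nr2f1 and Nr2f2, nuclear receptors of the caudal eminence, had 4 each, from 3289 to 603881 bp away. Erbb4, the neuregulin receptor of migrating interneurons, had 4 inside the gene. The strongest had an RBBP7 fold of 19.6, the 35th highest of the RBBP7 list, beside an RBBP4 fold of 4.32. Of the axon guidance genes, Robo1 was nearest to 6 regions and Plxna2 to 4.

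The accessibility lists show where chromatin was more open in one genotype. Regions more open in KO than in WT FTneg cells overlapped 46 of the 2946 regions (1.56%, 95% Wilson interval 1.17 to 2.08), near the 1.33% of all merged regions. None of the 2946 overlapped a WT-higher FTneg region, which allows a share of up to 0.102%, at a background of 0.0927%. None overlapped a KO-higher FTpos region (background 0.00258%), and 1, 15207 bp from Tnfsf4, overlapped a WT-higher FTpos region (background 0.0696%). The list of KO-higher FTneg regions held 724 entries and that of WT-higher 53.

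Against related classes the KO-higher share was intermediate. It was 0.951% for RBBP4 alone (odds ratio 1.65, 95% interval 1.13 to 2.39, adjusted p = 0.00933), 0.349% for RBBP7 alone (odds ratio 4.53, interval 2.54 to 8.44, adjusted p = 2.921e-08) and 4.15% for both with other subunits (odds ratio 0.367, interval 0.261 to 0.505, adjusted p = 1.925e-11), each a Fisher's exact test (two-sided) adjusted as before. The difference from RBBP4 alone was lost when RBBP4 or RBBP7 fold had to reach its list's median (Fisher's exact test, odds ratio 1.34, adjusted p = 0.233), with accessibility regions of an area of at least 1000 (1.78, adjusted p = 0.248) and in regions of 300 to 1000 bp (1.48, adjusted p = 0.0603). The fold setting did not filter the 2 classes alike, since regions of RBBP4 alone could pass by the RBBP4 fold only. It kept 2295 of the 2946 regions and 3149 of the 9144 of RBBP4 alone. That from RBBP7 alone was lost at the area of at least 1000 (Fisher's exact test, 3.31, adjusted p = 0.0957). Counted from the other side, 46 of 724 KO-higher (6.35%) and 0 of 53 WT-higher FTneg regions held one of these regions, a difference that did not pass the threshold (odds ratio 7.33 with 0.5 added to each cell, adjusted p = 0.0657 by Fisher's exact test).

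By width and position, the 46 regions that met a KO-higher FTneg region fell as follows, without a test. None of the 178 wide regions was among them, which allows a share of up to 1.69%. They made up 9 of the 895 regions under 500 bp (1.01%), 29 of the 1578 from 500 bp to under 1 kb (1.84%) and 8 of the 295 from 1 kb to under 2 kb (2.71%). Within 1 kb of a gene end lay 1 of the 46, where 9.57% of all 2946 did, and 23 had their highest summit inside a gene. Their RBBP4 fold had a median of 4.69 and their RBBP7 fold of 6.51, against 4.88 and 6.51 in the other regions, and their width a median of 626 bp against 591 bp.

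The area of the KO-higher regions, the authors' sum of −log10 p over each region, ran from 500.6 to 1815 in the 46 (median 761.6), against a median of 702.7 over the 724. The largest, of 1815, met a region of 625 bp that lay 31946 bp from Kcna10, a potassium channel gene, with folds of 6.34 and 4.53 (chr3:107150880-107151504). Next came a region 40346 bp from Spry2, an inhibitor of receptor tyrosine kinase signalling, with an area of 1488 and folds of 3.93 and 6.39. Regions inside Map4, a microtubule-associated protein gene (area 1385), inside Angpt1, an angiopoietin gene (1303), and inside Gpc4, a glypican gene (1250), followed. The nearest genes of the rest of the first 12 were Castor2, Mcu, Maml2, Lemd1, Zfp462, Spire1 and Itga1, with areas of 1167 down to 915.3. In none of the 12 did the nearest peak of a barred list lie closer than 7945 bp.

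Within 10 kb of a KO-higher FTneg region lay 92 of the 2946 regions (3.12%, against 2.67% of all merged regions), and within 100 kb 318 (10.8%, against 9.28%). Regions with both proteins and other subunits stood at 5.58% and 13%, RBBP4 alone at 2.11% and 8.86%, and RBBP7 alone at 1.77% and 8.96%. No region lay within 10 kb of a WT-higher FTneg region, where 0.183% of all merged regions did, and 13 lay within 100 kb (0.441%, against 0.546%). These distances were compared without a test.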

How the data were processed

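ChIP-seq peak lists (1 library per subunit) and ATAC-seq lists (3 embryos per genotype and fraction, combined by the authors) were used. Per the submitters' processing notes the build was mm10 and the software included MACS2 2.2.7.1, Genrich, BWA, deepTools and SAMtools 1.10; their settings are not known here. Each ChIP peak carries a fold enrichment over input, a ratio, and −log10 p and −log10 q, all deposited by the authors; blacklisted regions had been removed, per the file names. Each accessibility region carries a deposited score, the area under the authors' −log10 p curve; the smallest is 500.1. Which genotype was higher is taken from the labels.

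Peaks were merged as described, and shares were compared with two-sided Fisher's exact tests (adjusted threshold 0.05). Odds ratios are sample values with conditional exact intervals. Genes were the RefSeq protein-coding genes with curated transcripts (GRCm38.p6), 20949 symbols; the nearest gene is taken from the highest summit. Upstream windows covered 16782 of them. Python 3.11.15, pandas 2.3.3, numpy 2.4.6, scipy 1.17.1 and matplotlib 3.10.9 were used, and the merging and tests were tested on simulated data. Named are the 12 regions best by the worse of their 2 ranks of fold, the 12 KO-higher ones of largest area, every region in another accessibility list, the 8 widest, the 10 genes nearest to most regions, and genes of the lists. Upstream sequences followed by list and rank; that of Flt1 lies inside the annotated gene and is not printed. Some genes that this rule names are not reported here. The regions and lists were chosen with earlier results of these data known. Width steps, gene families, motifs and the composition of upstream windows were chosen after the files were seen.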

Additional observations from a re-analysis of the deposited data

How the results depend on the processing

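No paired analysis was possible because the accessibility lists were called over the embryos of a genotype together and each ChIP subunit has 1 library, so the lists used here hold no value per embryo. For the same reason no replicate could be left out. Of the alternatives, leaving out single barred lists, start sites in place of gene ends, regions of 300 to 1000 bp, and all settings of the counts of wide regions and of developmental genes were added after seeing the data. None of these settings reversed a direction. Among regions of at least 2 kb, though, the gene-end share was higher than for RBBP4 alone (69.1% against 59.1%). Over all widths it was lower. The 3 gene-end comparisons and the KO-higher comparison with regions that hold other subunits kept their call in all 14 alternatives of each. In the setting of a fold at or above the list median, regions of RBBP4 alone or RBBP7 alone could pass by 1 fold only. Regions with both proteins could pass by either, so that setting does not filter the classes alike. The KO-higher comparison with RBBP4 alone kept its direction and lost its call (adjusted p no longer under 0.05; odds ratios in parentheses) with a fold at or above the list median in either list (1.34), at an area of at least 1000 (1.78, on 8 against 14 regions) and at 300 to 1000 bp (1.48), and that with RBBP7 alone at that area (3.31, on 8 against 4). The comparison of KO-higher with WT-higher FTneg regions passed with peaks of −log10 q of at least 5 (odds ratio 7.84, adjusted p = 0.0418, Fisher's exact test), without the MBD3-labelled list (11.5, adjusted p = 0.0106) and without the HDAC2-labelled list (8.18, adjusted p = 0.0416); its adjusted p ranged from 0.0106 to 1.0 over 13 alternatives. With peaks of −log10 q of at least 10 there were 1501 regions, 49 wide ones and 6 developmental genes, with lists of equal length 474, 36 and 7, and with summits within 250 bp 109 wide ones and 15 genes. The q threshold and the equal lengths admit fewer peaks, barred lists included. The summit setting joins peaks by summit distance in place of overlap. Why the counts fell was not tested. Intervals cover counting error only, and the depth of the lists is unknown.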
